A study of Mus musculus with 22 samples.

Results

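Open chromatin and histone lactylation were compared in ICR mice, in telencephalon taken on embryonic day 13.5 (E13.5). The telencephalon is the part of the embryonic brain from which the cerebral cortex and the basal ganglia form, and at this age it holds dividing progenitors and newborn neurons. The comparison used 2 ATAC-seq libraries and 2 H3K18la ChIP-seq libraries, 4 of the 22 samples of the series, with the authors' peak list of each library on chromosomes 1 to 19 and X. Peaks of an assay were merged, and a stretch that both of its libraries called was kept as a region, which gave 18285 ATAC regions and 50161 H3K18la regions, called lactylated regions here. A region was shared where at least 1 base of it lay in a region of the other assay, and it belonged to 1 assay only where neither library of the other assay had a peak in it. The rest met a peak of the other assay that did not reach a region of both libraries.

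ATAC-seq and H3K18la ChIP-seq were made from the same strain, tissue and age, and the labels name no genotype or treatment. Open chromatin was tagged with the Tn5 transposase, and H3K18la was precipitated from native chromatin, without crosslinking. Peaks of H3K9ac and H3K9cr at E13.5, of H3K18la at E16.5 and RNA-seq of polyA RNA at E16.5 and E13.5, with 2 libraries each, served as readouts that did not choose the regions. The study states that the replicates are biological; the sources used here do not say whether embryos were pooled.

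Tn5 cuts DNA where nucleosomes are absent or loose, so ATAC peaks mark the nucleosome-poor cores of promoters, enhancers and insulators. H3K18la is a lactyl group on a lysine in the tail of histone H3, fed by lactate, the end product of glycolysis, and it has been described at active promoters and enhancers. The tail belongs to a nucleosome, so a mark on it can lie beside an open core but is read from nucleosomal DNA.

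The 250 bases before the RefSeq start of 4 genes (GRCm38.p6), 1 called by both assays, 1 by ATAC only and 2 by H3K18la only, show the kind of sequence on which the calls differed. CpG dinucleotides are in capitals, the letters read along the gene from upstream to the start, and values for these genes follow below.
Rab11b, both assays, chr17:33760487-33760736, minus strand: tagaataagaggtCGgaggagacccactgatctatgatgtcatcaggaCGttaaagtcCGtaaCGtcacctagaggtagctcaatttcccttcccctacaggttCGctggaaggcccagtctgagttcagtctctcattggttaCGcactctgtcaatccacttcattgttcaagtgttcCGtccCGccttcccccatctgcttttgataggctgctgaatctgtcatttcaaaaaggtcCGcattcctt
Zim1, ATAC only, chr7:6696433-6696682, minus strand: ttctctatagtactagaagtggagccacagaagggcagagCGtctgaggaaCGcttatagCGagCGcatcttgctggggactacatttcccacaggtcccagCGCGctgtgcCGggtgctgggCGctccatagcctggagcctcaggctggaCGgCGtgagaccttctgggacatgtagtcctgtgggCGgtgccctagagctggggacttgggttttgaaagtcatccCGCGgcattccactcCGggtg
Cfl1, H3K18la only, chr19:5490205-5490454, plus strand: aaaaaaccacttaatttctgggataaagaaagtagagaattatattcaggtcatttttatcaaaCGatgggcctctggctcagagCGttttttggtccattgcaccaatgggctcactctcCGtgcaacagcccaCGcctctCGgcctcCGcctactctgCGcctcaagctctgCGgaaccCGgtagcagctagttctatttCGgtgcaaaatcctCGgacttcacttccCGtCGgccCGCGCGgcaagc
Tead2, H3K18la only, chr7:45215542-45215791, plus strand: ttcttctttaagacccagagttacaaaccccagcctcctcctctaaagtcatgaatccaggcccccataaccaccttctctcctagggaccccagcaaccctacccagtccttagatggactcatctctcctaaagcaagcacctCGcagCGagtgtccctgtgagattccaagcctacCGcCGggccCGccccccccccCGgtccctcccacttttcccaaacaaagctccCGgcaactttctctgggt
The stretches held 9 CpG at Rab11b, 14 at Zim1, 16 at Cfl1 and 7 at Tead2, so CpG number did not order the 4 genes by class. The ATAC summit, averaged over the 2 libraries, lay 13 bp upstream of the start at Rab11b and 134 bp upstream at Zim1, inside the printed stretch in both cases. The start used for Zim1 lies inside the gene span given for it below, so part of its printed stretch belongs to that span. No ATAC peak of either library lay within 1000 bp of the starts of Cfl1 and Tead2.

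ATAC libraries listed 26446 and 28232 peaks, against 73369 and 69157 in the H3K18la libraries. The median peak was 264 and 235 bp long in the ATAC libraries, against 635 and 648 bp in the H3K18la libraries, and the peaks covered 8.29 and 7.93 Mb, against 72.3 and 68.8 Mb. Lactylation was therefore listed over more and longer stretches than open chromatin in every library. Of the ATAC peaks, 69.6% and 65.7% overlapped a peak of the other ATAC library, and of the H3K18la peaks 73.5% and 79.2% overlapped one of the other H3K18la library. The share of peaks within 1000 bp of the start of a protein-coding gene was 38.2% and 36.1% in the ATAC libraries, against 18% and 19.7% in the H3K18la libraries. The mean shares were 37.2% ± 1.48 and 18.8% ± 1.2 (SD, n = 2 each), a difference of 18.4 percentage points that exceeded both SDs, with an exact two-sided permutation p of 0.333, the smallest that 2 libraries against 2 can give. The number of reads behind the lists is unknown here, and peak lists carry no counts, so no interval was computed from depth.

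By number of regions, most open chromatin lay in lactylated chromatin, and most lactylated regions had no ATAC peak. Of the ATAC regions, 13725 (75.1%) were shared, 3537 (19.3%) were ATAC only and 1023 (5.59%) were the rest. Of the lactylated regions, 13916 (27.7%) were shared, 29273 (58.4%) were H3K18la only and 6972 (13.9%) were the rest. By length, shared lactylated regions covered 24.5 Mb, H3K18la-only regions 35.5 Mb and the rest 13.7 Mb of 73.7 Mb in all. The share of ATAC regions that were shared ran from 68.8% on chromosome 10 and 69.7% on X to 81.0% on chromosome 11. These shares move with the length of the lists. With the 20000 peaks of highest -log10 q in each library, 48.6% of ATAC regions and 42.9% of lactylated regions were shared. H3K9ac and H3K9cr at E13.5, called over 29653 and 25874 regions, covered 71.8% and 68.4% of the ATAC regions, so the share covered by H3K18la was near that of the other marks.

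Shared regions were longer, had higher fold enrichment and lay at gene starts more often than regions of 1 assay. The median length was 429 bp for shared ATAC regions, against 270 bp for ATAC-only regions. The median fold enrichment of shared ATAC regions was 8.11 in replicate 1 and 8.37 in replicate 2, against 6.93 and 7.08 for ATAC-only regions. Fold enrichment here is the authors' value of a peak over the background of the peak caller, and it is compared only within an assay. Shared lactylated regions measured 1458 bp at the median, against 925 bp for H3K18la-only regions, with median folds of 7.83 and 8.42, against 4.68 and 4.71. The same order of classes held in both libraries of each assay. Of the shared ATAC regions, 54.2% lay at a gene start, 21.2% elsewhere in a gene and 24.6% between genes, against 19.6%, 33.6% and 46.8% of the ATAC-only regions. Of the shared lactylated regions, 55.5% lay at a gene start, 20.4% elsewhere in a gene and 24.2% between genes, against 8.85%, 43.1% and 48.1% of the H3K18la-only regions. The gap in gene starts between shared and ATAC-only regions was 15.8 percentage points at -log10 q of at least 10 and 15.7 with the 20000 best peaks. Regions are not replicates of a condition, so these shares are descriptions with no test.

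**Figure D1:**
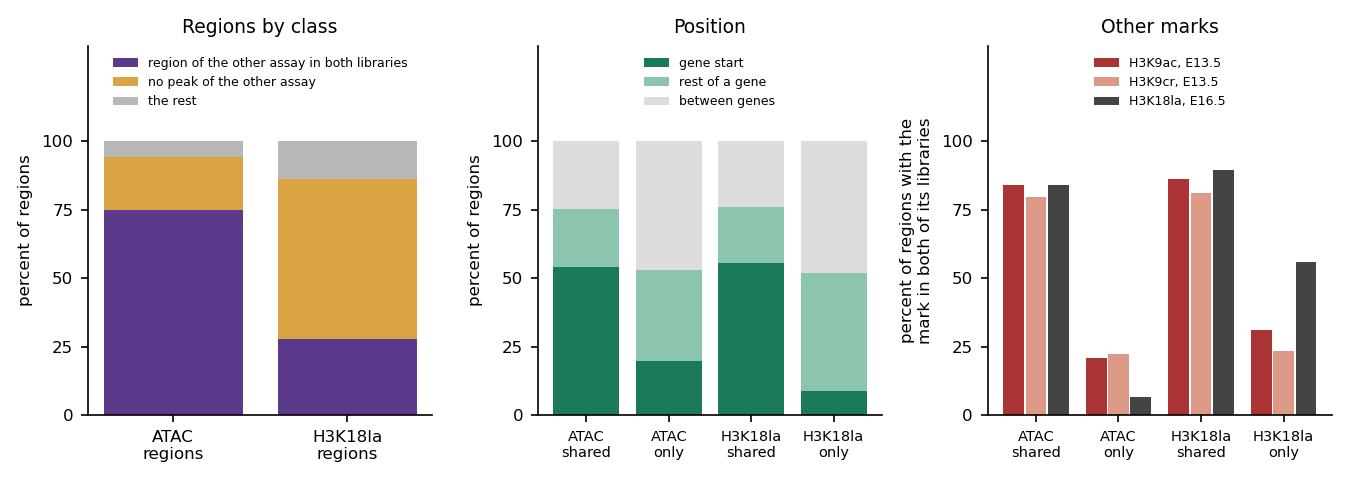
Percent of regions by class (left, 18285 ATAC and 50161 H3K18la regions), by position (centre) and with a peak of another mark in both of its libraries (right). Shared regions of either assay were mostly at gene starts and mostly carried the other marks, and ATAC-only regions carried H3K18la at E16.5 in 6.70% of cases.

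The other histone marks were found on most shared regions and on a smaller part of single-assay regions. H3K9ac peaks of both libraries lay on 84.0% of shared and 21.0% of ATAC-only ATAC regions, and H3K9cr peaks on 79.5% and 22.4%. Among lactylated regions, H3K9ac lay on 86.3% of shared and 30.9% of H3K18la-only regions, and H3K9cr on 81.0% and 23.3%. Position split the ATAC-only regions sharply. At gene starts (693 regions), 81.7% had H3K9ac and 86.6% had H3K9cr, while elsewhere in genes (1187 regions) 7.50% and between genes (1657 regions) 5.31% had H3K9ac. ATAC-only regions at gene starts thus carried H3K9 acylation without an H3K18la peak, and those away from gene starts mostly carried none of the 3 marks. In all, 72.5% of ATAC-only regions had no peak of H3K9ac or H3K9cr in any library. The gap in H3K9ac between shared and ATAC-only regions narrowed when the ATAC and H3K18la lists were shortened and the H3K9 lists kept whole. It was 28.5 percentage points at -log10 q of at least 10 and 39.6 with the 20000 best peaks. The gap in H3K9cr was 25.2 and 34.9.

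Lactylation 3 days later gave a second look at the classes, from libraries that did not define them. At E16.5, H3K18la was called in both libraries on 83.9% of shared and 6.70% of ATAC-only ATAC regions. It was called on 89.5% of shared and 55.9% of H3K18la-only lactylated regions. The gap between these classes was 7.05 percentage points with E13.5 peaks of -log10 q of at least 10 and 3.95 with the 20000 best. The E16.5 lists were kept whole in both settings. At gene starts, 68.6% of the 2590 H3K18la-only regions but 8.08% of the 693 ATAC-only regions had it at E16.5. Chromatin that was open without H3K18la at E13.5 was therefore seldom called in both E16.5 H3K18la libraries, also at gene starts. A peak in 1 E16.5 library was more frequent. Neither E16.5 library had a peak on 78.4% of the ATAC-only regions and on 69.0% of those at gene starts.

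The ATAC summit lay within the lactylated region and beside the summits of H3K18la. Among the 14171 overlapping pairs of an ATAC and a lactylated region, 66.7% of ATAC summits lay in the central 50% of the length of the lactylated region and 22.4% lay outside it, where the 2 regions overlapped at their edges. The median distance between the ATAC summit and the H3K18la summit was 327 bp in H3K18la replicate 1 and 336 bp in replicate 2. The nearer of the 2 summits lay at a median of 290 bp (quartiles 202 and 378 bp), at 200 to under 500 bp in 65.8% of pairs and under 100 bp in 6.65%. The summits of the 2 assays were thus offset far more often than they coincided.

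H3K18la summits formed 2 humps around the ATAC summit, 1 on each side, with a dip between them. In bins of 50 bp, H3K18la replicate 1 had 7.72% of its summits 350 to 300 bp to the left and 7.36% 300 to 350 bp to the right, and the bins beside the ATAC summit held 1.13% and 1.23%. In replicate 2 the same bins held 7.32%, 7.28%, 1.16% and 1.03%. Both libraries gave the same shape. For the next counts the summits of the 2 H3K18la libraries were pooled, so the 2 sides could come from different libraries. Of the shared ATAC regions, 4671 (34.0%) had an H3K18la summit within 1000 bp on both sides and 170 (1.24%) had none within 1000 bp. ATAC-only regions had summits within 1000 bp on both sides in 464 cases (13.1%), on 1 side only in 800 and on neither side in 2273 (64.3%). Their nearest H3K18la summit lay at a median of 10409 bp, and over 10000 bp away for 1794 of them (50.7%). ATAC-only regions were defined by having no H3K18la peak in them, so their distances are partly set by that choice.

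**Figure D2:**
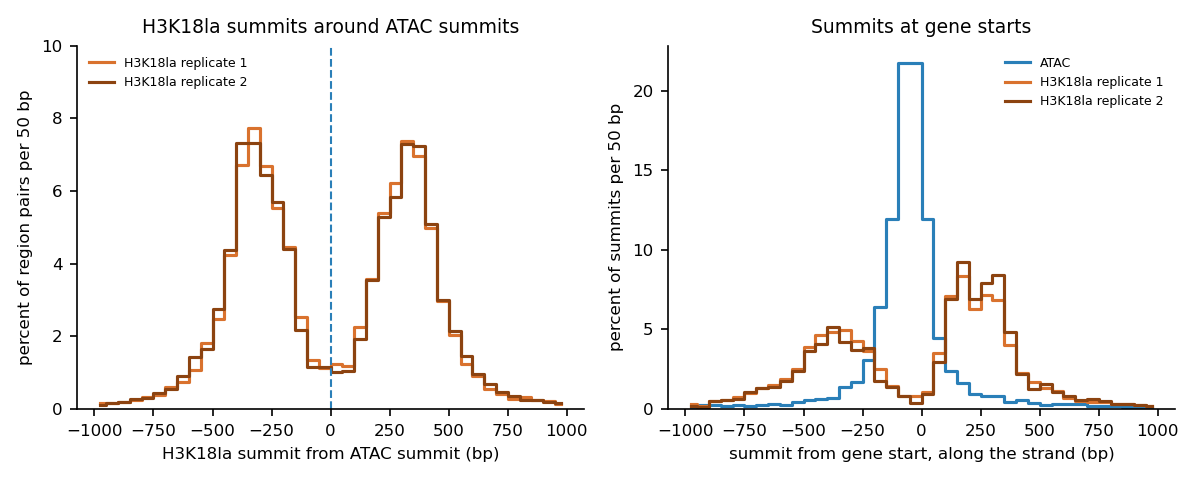
Left, distance of H3K18la summits from the ATAC summit (bp) in 14171 overlapping pairs, as percent of pairs per 50 bp, for each H3K18la library. Right, position of summits along the strand from the gene start (bp) in 5752 pairs. The H3K18la summits lie in 2 humps about the ATAC summit, and at gene starts the ATAC summits centre at a median of -53 bp.

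At gene starts with a known strand, the order of the signals could be read along the gene. In 5752 pairs, the ATAC summit lay at a median of -53 bp, that is, upstream of the start, and 72.9% of the ATAC summits were upstream. It lay within 100 bp of the start in 59.9% of pairs. H3K18la summits lay at a median of 114 bp in replicate 1 and 143 bp in replicate 2, downstream of the start, with 56.0% and 59.4% downstream. Only 6.29% and 5.16% of them lay within 100 bp of the start. The lactylated region spanned a median of -654 to 681 bp around the start. Open chromatin was thus centred just before the start, and the highest H3K18la signal stood on either side, more often inside the gene.

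The place of the ATAC summit within the lactylated region varied with the length of that region. The distance to the nearer H3K18la summit had medians of 250, 263, 264, 344 and 434 bp in the 5 length classes that follow, from short to long. A short region has a narrow centre, so the central share is partly set by length. In regions under 500 bp (779 pairs), 2.57% of ATAC summits were in the central 50% of the length and 90.5% lay outside. In regions of 500 to under 1000 bp (3033 pairs), 26.5% were central and 57.2% outside, and in those of 1000 to under 2000 bp (6110 pairs), 81.7% and 10.4%. In regions of 2000 to under 5000 bp (3856 pairs), 86.9% were central and 2.28% outside, and in those of 5000 bp or more (393 pairs), 71.2% and 1.78%. When H3K18la peaks under 1000 bp apart were joined, 79.2% of ATAC summits were central. A lactylated region held more than 1 ATAC region in 253 cases (at most 3), exactly 1 in 13663 and none in 36245. The share of lactylated regions with an ATAC region was 12.7% under 500 bp, 19.99% at 500 to under 1000 bp, 33.2% at 1000 to under 2000 bp, 37.7% at 2000 to under 5000 bp and 40.4% at 5000 bp or more.

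Strongly enriched regions of either assay were shared more often, but within shared regions the 2 strengths had a rank correlation near 0. From the 10% of ATAC regions with the lowest fold enrichment to the 10% with the highest, the shared part was 63.3% at the low end and 86.8% at the high end. At gene starts it was 78.4% and 89.4%, and away from them 59.2% and 72.9%. The very top of the ATAC ranking departed from this trend. The best-ranked shared ATAC region had folds of 24.7 and 26.3. ATAC-only regions in Tbx20 (39.5 and 41.1) and Zfp804b (34.1 and 38.4) exceeded it. Among lactylated regions the shared part was 5.96% in the lowest 10% and 64.7% in the highest 10%, with 37.1% and 80.1% at gene starts and 3.11% and 50% away from them. The share at gene starts moved with both rankings, at 24.9% and 88.7% for ATAC and 9.17% and 43.0% for H3K18la, and the trend was present within each position class.

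**Figure D3:**
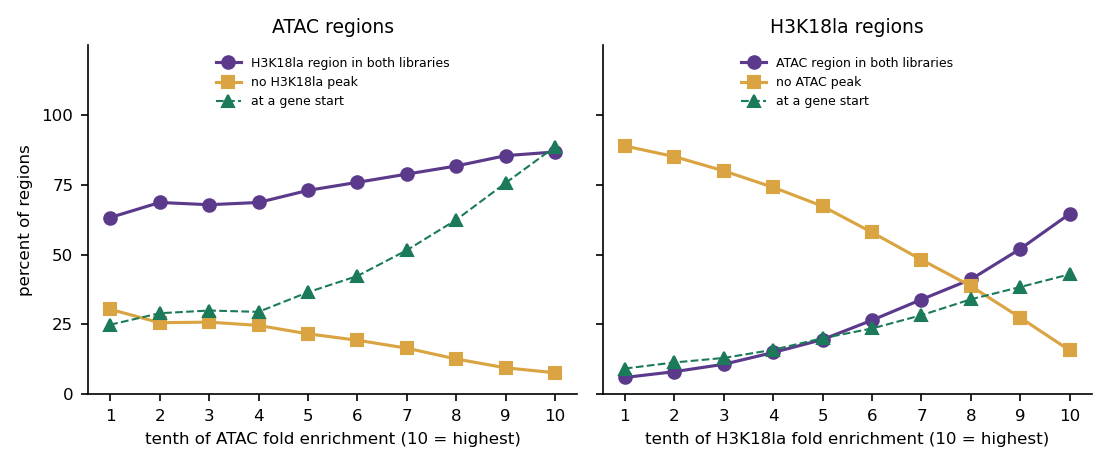
Percent of regions that were shared, that had no peak of the other assay, or that lay at a gene start, by 10% class of fold enrichment (10 is the highest), for ATAC regions (left) and H3K18la regions (right). The shared part is 86.8% in the highest class of ATAC regions and 64.7% in the highest class of lactylated regions.

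Within the 14171 shared pairs, Spearman's rho between ATAC and H3K18la fold enrichment was -0.01, and it lay between -0.04 and 0.02 for the 4 pairings of single libraries. The same rank correlation between replicates was 0.719 for ATAC regions and 0.770 for lactylated regions, so the ranks within an assay were repeatable. At gene starts rho was -0.04 (n = 7700) and away from them 0.06 (n = 6279). The sign of rho changed between ways of choosing regions, with values from -0.131 to 0.0629, so no direction is given. ATAC fold enrichment correlated with H3K9ac fold enrichment at rho 0.313 and with H3K9cr at 0.297 over their own shared pairs. H3K18la fold enrichment was higher in longer regions (rho 0.658, n = 50161), while ATAC fold enrichment had a rho of -0.244 with the length of the lactylated region around it. These correlations run across regions of the same libraries and are descriptions.

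Genes were sorted by the peaks within 1000 bp of their starts. A gene with several starts was called where a peak lay near any of them. The libraries and the assays could thus be called at different starts of a gene. For 4357 of the 21631 genes the start was not known by strand and both gene ends were used, so that a peak at the far end could count. Among genes with a known start, using both ends left 88.4% in the same class. Genes named here without a known start are Spi1, Actb, Dlx6, Dlx5, Grm5, Ccnd1, Mex3d, Myc and Zfp960. Of 21631 protein-coding genes, 9408 (43.5%) had an ATAC peak in both ATAC libraries and 11421 (52.8%) had an H3K18la peak in both H3K18la libraries. Both assays called 8499 genes (39.3%), ATAC only 403 (1.86%), H3K18la only 1461 (6.75%) and neither 8340 (38.6%). The other 2928 (13.5%) had a peak in 1 library of an assay. For 141 (1.66%) of the genes called by both, the peaks of the 2 ATAC libraries lay in the window but did not overlap each other. H3K9ac was called in both libraries at 99.8% of the genes called by both assays, 85.1% of those with ATAC only, 88.3% of those with H3K18la only and 5.74% of those with neither. H3K18la at E16.5 was called at 91.2%, 11.2%, 75.2% and 0.935% of the same 4 classes. The counts depend on the lists. With peaks of -log10 q of at least 10, both assays called 4128 genes, ATAC only 819 and H3K18la only 2954, and with the 20000 best peaks per library the counts were 4684, 2443 and 914. Calling in at least 1 library gave 707 ATAC-only genes, leaving out H3K18la replicate 2 gave 740 of them, and leaving out ATAC replicate 2 gave 2207 H3K18la-only genes.

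Genes ranked high by both assays are described first. At Rab11b, which encodes a GTPase of recycling endosomes (chr17:33742484-33760486), ATAC fold enrichment was 15.5 and 18.3 and H3K18la fold enrichment was 42.4 and 43.3, with a lactylated region of 1836 bp. Tcaf1, a regulator of a TRP ion channel, had ATAC folds of 15.98 and 18.6 and H3K18la folds of 21.6 and 29.5 over 1959 bp. Lrif1, a partner of the inactive X chromosome and heterochromatin proteins, had ATAC folds of 21.6 and 18.9 and H3K18la folds of 20.6 and 23.9. All 3 had H3K9ac, H3K9cr and E16.5 H3K18la in both libraries.

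Other genes called by both assays stood high in 1 assay and low in the other. The shared start of Chtf18, a clamp-loader subunit of DNA replication (chr17:25719030-25727434), and Rpusd1 had ATAC folds of 13.9 and 16.3, with H3K18la folds of 2.68 and 3.43. The peaks of the 2 H3K18la libraries did not overlap each other there, so no lactylated region stood at that start. Fzd7, a Wnt receptor, had ATAC folds of 13.7 and 10.7 and H3K18la folds of 2.94 and 2.90, and no H3K18la at E16.5. In the other direction, Sox6, a transcription factor of neural progenitors and interneurons (chr7:115470872-116040776), had ATAC folds of 4.55 and 4.14, with H3K18la folds of 14.0 and 14.5 over a region of 7364 bp. Atp6v1g2, a neuronal proton pump subunit, shares its start with Nfkbil1 and had ATAC folds of 4.92 and 4.55, with H3K18la folds of 36.4 and 46.6. Myc, the growth regulator, had ATAC folds of 4.35 and 3.87 and H3K18la folds of 9.65 and 13.6 over 4717 bp. The peaks of the 2 ATAC libraries did not overlap each other at Sox6, Atp6v1g2 and Myc, so no ATAC region stood within 1000 bp of those starts. At Myc, where both gene ends were used, the nearest ATAC region lay 1647 bp away.

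ATAC-only genes of highest rank included zinc finger genes. At Zim1, an imprinted zinc finger gene (chr7:6674444-6696540), the ATAC folds were 18.6 and 24.1, with H3K9cr in both libraries and H3K9ac in 1. Zfp960, another zinc finger gene, had folds of 21.1 and 19.7 with H3K9ac and H3K9cr in both libraries. The highest ATAC-only start was that of Gm20594 (chr6:79818031-79818364), with folds of 36.5 and 33.8, no other mark and 0 CPM (library-scaled counts) of RNA in all 4 libraries. The ATAC-only regions of highest fold away from gene starts were short and unmarked too. A region of 164 bp in Tbx20 (chr9:24745088-24745251) had folds of 39.5 and 41.1, and 1 of 154 bp in Zfp804b (chr5:7276775-7276928) had folds of 34.1 and 38.4. Neither had a peak of H3K9ac, H3K9cr or E16.5 H3K18la in any library.

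H3K18la-only genes of highest rank included genes of the actin cytoskeleton. Cfl1, an actin-severing protein (chr19:5490455-5494031), had H3K18la folds of 63.5 and 63.0 over a region of 4207 bp, with the nearest ATAC region 20028 bp away. Actb, cytoplasmic actin (chr5:142903115-142907976), had folds of 54.1 and 65.8 over 6006 bp, and an ATAC region lay inside that lactylated region, 1830 bp from the nearer gene end. Igfbp4, a binder of insulin-like growth factors, had folds of 48.9 and 52.7 and also had an ATAC region in its lactylated region, 1164 bp away. Such cases were few. Of the 1461 H3K18la-only genes, 123 (8.42%) had an ATAC region elsewhere in the lactylated region, and the nearest ATAC region lay at a median of 21572 bp. The lactylated region had a median length of 1323 bp at genes called by both and 1246 bp at H3K18la-only genes, and it reached 2000 bp at 18.1% and 24.2% of them. Among regions rather than genes, the strongest H3K18la-only stretches lay in Phc2, a Polycomb gene (chr4:128713920-128718801, folds 39.6 and 33.6), at Mex3d (chr10:80384925-80387163, folds 37.8 and 33.1) and in Mafk (chr5:139796132-139799047, folds 33.7 and 34.0).

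Genes that pattern the telencephalon and drive neurogenesis fell in the H3K18la-only class far more often than all genes did. Over 3 lists of dorsal pallium and radial glia factors, neurogenesis factors and ventral telencephalon genes, 27 of 56 genes (48.2%) were H3K18la only, against 6.75% of all genes. Both assays called 17 of them, 10 had a peak in 1 library of an assay, 2 had neither and 0 were ATAC only. The dorsal list of 18 had 6 genes with both and 8 with H3K18la only, the neurogenesis list of 20 had 8 and 8, and the ventral list of 18 had 3 and 11. Their lactylated regions were long, with a median of 5381 bp at the genes called by both and 4679 bp at the H3K18la-only genes, against 1303 bp over all genes. Of the 27 H3K18la-only genes, 3 had an ATAC region elsewhere in the lactylated region.

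In the dorsal list, Tead2, a Hippo pathway factor of progenitors, had H3K18la folds of 17.7 and 22.7 over 2620 bp, with no ATAC peak at its start. Nr2f1, a factor of cortical area patterning, had H3K18la folds of 7.28 and 8.89 over 5612 bp. Lhx2, a selector of cortical identity, was called by both, with ATAC folds of 7.71 and 10.2 and H3K18la folds of 15.9 and 18.1 over 11957 bp. Sox2, the progenitor factor, had ATAC folds of 4.30 and 6.12, from peaks that did not overlap between the libraries, and H3K18la folds of 21.4 and 25.3 over 18913 bp. Pax6 and Fezf2, picked after their values were seen, were H3K18la only as well, with regions of 13429 and 14648 bp that each held an ATAC region away from the start.

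In the neurogenesis list, Eomes, the factor of intermediate progenitors, had H3K18la folds of 9.54 and 11.7 over 4303 bp without ATAC. Neurod2 and Neurod6, factors of young excitatory neurons, had H3K18la folds of 19.97 and 12.7 over 8096 bp and of 20.3 and 22.5 over 8529 bp, again without ATAC. Sox11 was called by both, with ATAC folds of 5.33 and 7.16 and H3K18la folds of 22.6 and 36.0, as was Tubb3, the neuronal tubulin, with ATAC folds of 5.11 and 5.69 and H3K18la folds of 33.7 and 37.2. The 8 genes of this list that both assays called ran from 4.86 to 11.01 in ATAC fold and from 6.45 to 33.7 in H3K18la fold in replicate 1, and from 5.69 to 13.6 and from 8.19 to 36.04 in replicate 2. Sox5, of deep-layer neurons, had no peak of either assay at the start used here. In the ventral list, Dlx1, an interneuron factor, had H3K18la folds of 11.2 and 12.8 over 20028 bp, and Gad2, a GABA-synthesizing enzyme, had 20.4 and 19.9 over 13043 bp, both without ATAC. Dlx5 was called by both, with ATAC folds of 5.47 and 5.79 and H3K18la folds of 14.4 and 14.7 over the 18725 bp region that also holds Dlx6 (chr6:6864115-6882839), among the 3 longest shared lactylated regions. The longest of all (chr13:83712737-83751498, 38762 bp) lay 45658 bp from Mef2c, held 2 ATAC regions and had H3K18la folds of 24.8 and 23.8.

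**Figure D4:**
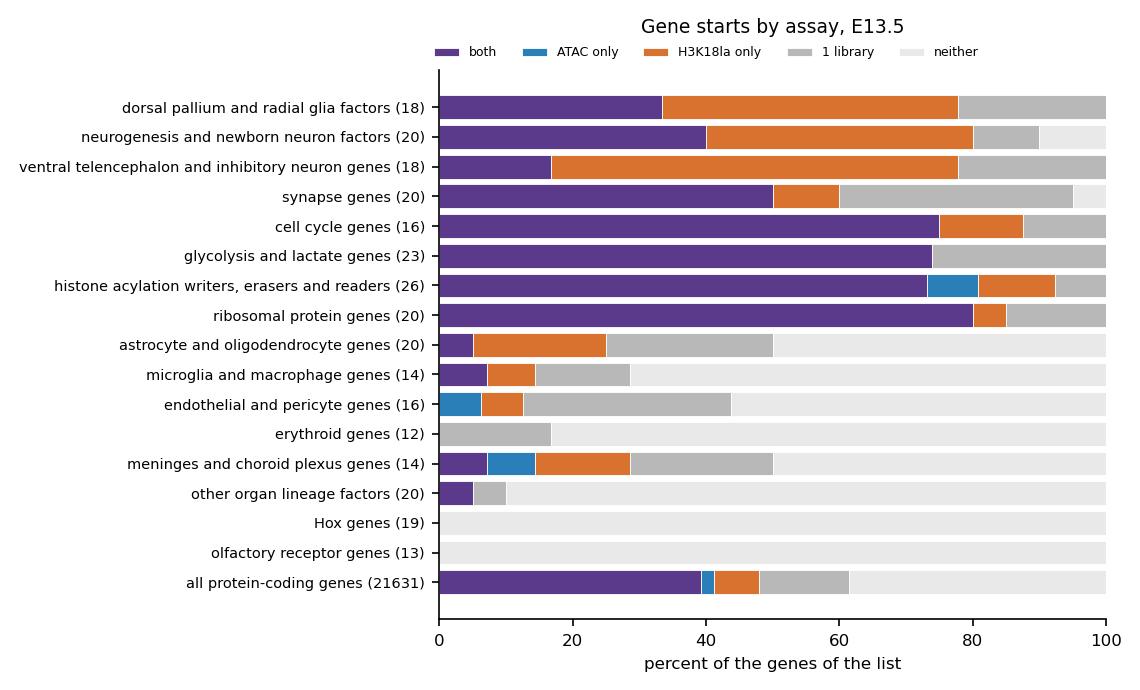
Percent of the genes of each list, with the number of genes in brackets, called at their start by both assays, by ATAC only, by H3K18la only, in 1 library of an assay, or by neither. H3K18la-only genes make up 48.2% of the 3 telencephalon lists together and 6.75% of all protein-coding genes.

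Genes of growth and metabolism were mostly called by both assays. Over the lists of cell cycle, glycolysis and lactate, histone acylation and ribosomal protein genes, 64 of 85 genes (75.3%) were called by both. Of these 85, 2 were ATAC only and 6 were H3K18la only. Both assays called 39.3% of all genes, but 7837 of the 12293 genes with at least 1 CPM of RNA at E13.5. Of the 23 glycolysis and lactate genes, 17 were called by both and 0 by 1 assay only. Gapdh had ATAC folds of 11.8 and 11.2 and H3K18la folds of 10.6 and 19.9, while Ldha, which makes lactate, had H3K18la folds of 5.39 and 5.16 and an ATAC peak of fold 6.77 in replicate 2 alone. Of the 16 cell cycle genes, 12 were called by both. Pcna, the replication clamp, had ATAC folds of 15.7 and 14.9 and H3K18la folds of 12.7 and 11.7, and Ccnd1, cyclin D1, was H3K18la only over 6446 bp. Of the 26 genes of histone acylation, 19 were called by both, among them the readers Brd2 and Brd3. The deacylases Sirt1, with ATAC folds of 4.64 and 8.81, and Hdac8, with 9.64 and 4.85, were ATAC only. Ep300, an acyltransferase reported to write H3K18la, had H3K18la folds of 9.96 and 14.0 and an ATAC peak of fold 8.54 in replicate 2 alone. The median lactylated region at the 64 genes called by both was 1367.5 bp.

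**Figure D5:**
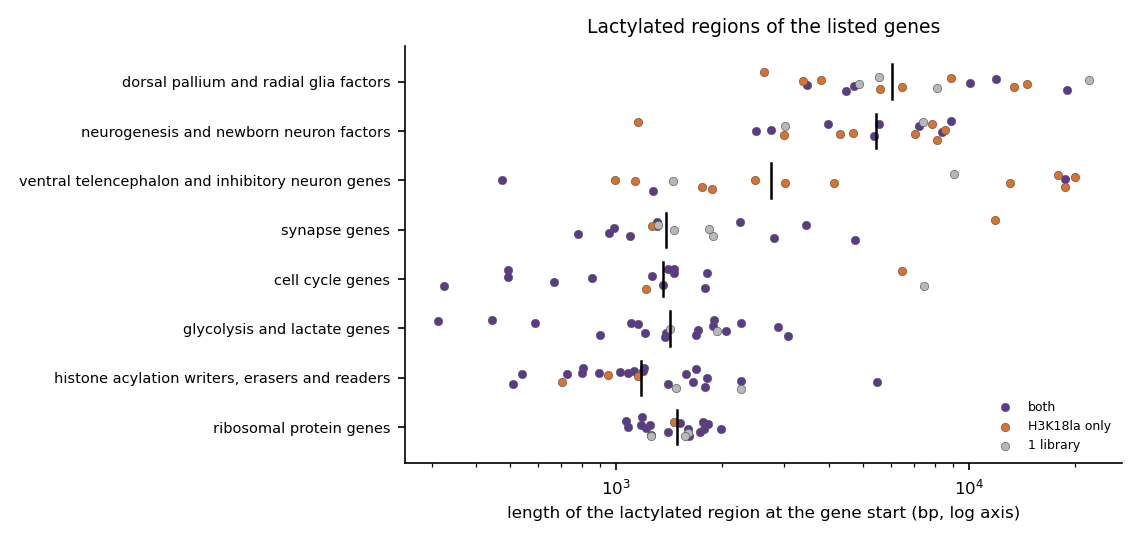
Length of the lactylated region at the gene start (bp, log axis) for the genes of 8 lists, coloured by class, with a bar at the median of each list. The medians are 6035 bp for the dorsal list, 5464 bp for the neurogenesis list and 2742 bp for the ventral list, and between 1173 and 1487 bp for the synapse, cell cycle, glycolysis, acylation and ribosomal lists.

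Of 20 synapse genes, both assays called 10 (50%, against 39.3% of all genes), H3K18la only 2 (10%, against 6.75%) and 1 library of an assay 7 (35%, against 13.5%). Among the 12293 genes with at least 1 CPM of RNA at E13.5, 7837 were called by both, a larger share than in the synapse list. Syt1, the calcium sensor of vesicle release, had ATAC folds of 17.6 and 16.6 and H3K18la folds of 7.28 and 7.14. The 2 group counts kept their direction against all genes in the settings tried, but with peaks of -log10 q of at least 10 the H3K18la-only count of the telencephalon lists was 41 of 56 (all genes 13.7%) and the count called by both in the growth lists 35 of 85 (all genes 19.1%). With the 20000 best peaks per library these counts were 21 of 56 (all genes 4.23%) and 42 of 85 (all genes 21.7%). Genes of a list were chosen by function and are not replicates, and no test was run on the lists.

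Lists of other cell types and tissues had neither assay's peak in 50% of their genes or more, against 38.6% of all genes. Neither assay called 10 of 14 microglia and macrophage genes, 9 of 16 endothelial and pericyte genes, 10 of 12 erythroid genes, 10 of 20 astrocyte and oligodendrocyte genes, 7 of 14 meninges and choroid plexus genes, 18 of 20 lineage factors of other organs, all 19 Hox genes and all 13 olfactory receptor genes on the chromosomes used. Exceptions in the H3K18la-only class were Gja1, Cnp, Nfia and Hepacam of the glial list, with Nfia at H3K18la folds of 19.8 and 21.8 over 11808 bp. Spi1, a factor of microglia, was called by both, with ATAC folds of 8.92 and 9.17 and H3K18la folds of 7.49 and 4.62. In bulk tissue a peak from few cells and a weak peak in all cells cannot be told apart, and likewise fewer cells of a type and less RNA per cell.

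RNA-seq gave the expression behind each class. The 4 libraries held 17532927 and 18024375 counts at E16.5 and 17059330 and 18485639 at E13.5. The 18 genes of the dorsal list, markers of the labelled tissue, summed to 2103 and 2019.8 CPM at E16.5, against 3739.95 and 3573 CPM at E13.5, and 17 of the 19 Hox genes had 0 counts in all 4 libraries. Of the genes with an RNA entry, 96.7% of those called by both reached 1 CPM at E13.5 on average, 66.8% of ATAC-only genes, 79.4% of H3K18la-only genes and 12.9% of genes with neither. In the single E13.5 libraries the shares were 96.5% and 96.6% for both, 66.2% and 67.5% for ATAC only, 79.1% and 79.1% for H3K18la only, and 12.9% and 12.9% for neither, so the classes differed by far more than the libraries did.

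Between E16.5 and E13.5, edgeR's quasi-likelihood test with Benjamini-Hochberg adjustment called 4605 of 16237 genes higher at E16.5 (28.4%) and 4740 lower (29.2%). Among the 7964 tested genes called by both assays at E13.5, 1847 were higher (23.2%) and 3242 lower (40.7%). Among the 316 tested ATAC-only genes, 128 were higher (40.5%) and 61 lower (19.3%), and among the 1179 tested H3K18la-only genes, 439 were higher (37.2%) and 318 lower (27%). The median log2 fold change was -0.13 for both, 0.22 for ATAC only and 0.12 for H3K18la only, against 0.01 over all 16237 genes. The classes hold only protein-coding genes. Over the 13324 tested genes with a class, 4001 were higher (30.0%) and 4349 lower (32.6%), with a median of -0.02. Among the 1496 tested genes with neither, 685 were higher (45.8%) and 140 lower (9.36%). Among the 2369 tested with a peak in 1 library of an assay, 902 were higher (38.1%) and 588 lower (24.8%). Falls outnumbered rises among genes called by both, and rises outnumbered falls in each of the other classes. A gene could pass the low-count filter through E16.5 alone. The splits of classes with low RNA at E13.5, above all that with neither, may therefore be partly set by the filter. With upper-quartile scaling the split was 2272 higher and 2593 lower for both, 137 and 49 for ATAC only and 496 and 272 for H3K18la only, and 5349 and 3820 over all genes.

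Genes of the telencephalon lists were mostly lower at E16.5. Of the 27 H3K18la-only ones, 0 were higher and 22 lower at E16.5, and of the 17 called by both, 1 was higher and 13 lower. Over all 16237 genes tested, 28.4% were higher and 29.2% lower, and among genes called by both 23.2% and 40.7%. No listed gene that was called changed sign under another scaling. Tead2 fell, with a log2 fold change of -1.68 and an adjusted p of 5.2e-07 (edgeR), and so did Eomes, with -0.93 and an adjusted p of 7.5e-05. Meis2 had 0.02 with an adjusted p of 0.615 and Neurod2 -0.09 with an adjusted p of 0.237. Summed RNA of some lists of other cells moved between the ages as well. The 16 endothelial and pericyte genes summed to 721 and 750 CPM at E16.5, against 214 and 222 CPM at E13.5. Of these, 16 of 16 were called higher, against 28.4% of all genes tested. The 14 microglia and macrophage genes summed to 143 and 145 CPM at E16.5, against 68.5 and 66.8 CPM at E13.5. Of these, 11 of 14 were called higher, against the same 28.4%, and 0 of these genes was at 0 in all libraries. The meninges and choroid plexus list overlapped between the ages, with 52.7 and 80.5 CPM at E16.5, against 36.5 and 78.5 CPM at E13.5. Of its 10 tested genes, 2 were higher and 1 lower. Of 10 tested erythroid genes, 5 were higher and 3 lower, and of 17 tested astrocyte and oligodendrocyte genes, 13 and 2. The part of cell makeup in the RNA differences was not tested.

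Single genes with the largest RNA changes show both classes. Grm5, a glutamate receptor, was ATAC only at E13.5, with ATAC folds of 7.25 and 13.3, and carried H3K18la in both libraries at E16.5. Its RNA was 109 and 115 CPM at E16.5, against 11.4 and 10.4 CPM at E13.5, without overlap, a log2 fold change of 3.37 ± 0.07 (SE) with an adjusted p of 2.1e-07 (edgeR). Gabra5, a GABA receptor subunit, was ATAC only at E13.5 and had H3K18la at E16.5 likewise, with 24.3 and 22.5 CPM at E16.5, against 2.46 and 2.15 CPM at E13.5. Hmga2, a chromatin protein of early progenitors, was H3K18la only over 4939 bp and had 1.34 and 1.69 CPM at E16.5, against 35.4 and 48.3 CPM at E13.5, a log2 fold change of -4.78 ± 0.21 (SE) with an adjusted p of 1.5e-06 (edgeR). Stum was H3K18la only and had 31.7 and 34.2 CPM at E16.5, against 2.58 and 2.37 CPM at E13.5. Grm5 and Gabra5 were not typical of their class. Of the ATAC-only genes that were higher at E16.5, 17 of 128 (13.3%) had H3K18la in both E16.5 libraries, against 5 of 61 (8.20%) of those lower and 17 of 127 (13.4%) of those not called. For H3K18la-only genes the 3 shares were 82.0%, 77.0% and 75.8%, and for genes called by both 94.2%, 89.7% and 91.1%.

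Promoter sequence differed between the classes. Each window took the class of its gene, also where that start itself had no peak. Over RefSeq windows of 300 bases (250 before and 50 after a start), the median number of CpG was 22 for genes called by both, 16 for ATAC only, 15 for H3K18la only and 3 for neither, against 13 over all 21045 windows. At least 10 CpG stood in 85.2%, 74.2%, 66.5% and 14.6% of the windows of these classes, against 57.3% of all. The GC box GGGCGG, which itself holds a CpG, was found on either strand in 65.9%, 53.6%, 54.9% and 16.8%, against 46.7% of all. The ETS letters CCGGAAG stood in 18.5%, 11.1%, 10.04% and 3.15%, against 11.7% of all. The CCAAT letters stood in 40.8% of the windows of genes called by both, 44.6% for ATAC only, 27% for H3K18la only and 40.0% for neither, against 38.5% of all. CpG-rich windows were thus most frequent at genes that both assays called, and CCAAT letters were least frequent at H3K18la-only genes. A match of letters is a description and not a binding site.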

How the data were processed

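Peak lists of ATAC-seq (E13.5) and of H3K18la, H3K9ac and H3K9cr ChIP-seq, and RNA-seq of polyA RNA, were analysed with 2 libraries per group. The authors aligned with Bowtie2 2.4.1 and called peaks in each library with MACS2 2.2.7.1, per the submitters' processing notes, on GRCm38. The deposited peak lists give a pileup signal, a -log10 p and -log10 q value and a fold enrichment ratio per peak; the sources used here do not name the control of the caller. Deposited RNA values are expected counts from Salmon 1.1.0, per the submitters' processing notes, which were rounded to whole numbers here. The authors' own comparison table was not used.

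Peaks on chromosomes 1 to 19 and X were merged within an assay, with an overlap of at least 1 base. A region summit is the mean of the summits of the highest peak in each library, and a region's fold enrichment is that of the highest peak. Gene starts were RefSeq stranded starts for 17274 genes and both gene ends for 4357 genes, with a window of 1000 bp. Where a gene had several starts, a peak near any of them counted for the gene. RNA at E16.5 over E13.5 was tested with edgeR 4.0.16 in R 4.3.3 (quasi-likelihood, TMM scaling, low counts filtered, Benjamini-Hochberg adjusted p below 0.05), with DESeq2 1.42.0 as an alternative. Region work used Python 3.11.15, numpy 2.4.6, pandas 2.3.3 and scipy 1.17.1. P-values measure the spread between 2 libraries a group. Replicate numbers did not pair the RNA libraries by label.

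Genes were named by rank: the 5 best by summed rank and the 5 most uneven each way among genes called by both, the 5 best of each single-assay class, the 2 with the largest RNA rise and fall of each single-assay class at 10 CPM or more, up to 4 per class of each list by E13.5 CPM, and the 3 best regions of each class with the 3 longest. The members and lists were chosen with earlier results of these data known. Sequences are RefSeq promoters of GRCm38.p6; those printed were picked after values were seen. Results for a few genes are not reported here.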

Additional observations from a re-analysis of the deposited data

How the results depend on the processing

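In the order share of ATAC regions shared, share of lactylated regions shared, central summits, summit distance (bp), rho, and the shared minus H3K18la-only gap in E16.5 H3K18la, the values were 68.6%, 20.3%, 70.6%, 295, -0.131 and 7.05 points at -log10 q of at least 10. They were 48.6%, 42.9%, 76.6%, 308, -0.0787 and 3.95 with the 20000 best peaks, 62.6%, 22.4%, 82.4%, 279, 0.00237 and 37.4 with 50% of the ATAC region covered, and 77.9%, 32.9%, 79.2%, 296, 0.0195 and 28.7 with H3K18la peaks joined. Covering 50% also gave a gap in H3K9ac of 66.6 points. The settings changed the E13.5 ATAC and H3K18la lists only, and the lists of H3K9ac, H3K9cr and E16.5 H3K18la were kept whole. With peaks of at least 1 library, 66.9% of ATAC regions were shared, 64.1% of summits were central at 283 bp, rho was 0.0629, the E16.5 gap 47.8, the gene-start gaps 29.6 (ATAC) and 37.1 (H3K18la), and ATAC-only genes 707. Region midpoints gave 67.6% and 277 bp, and rho was -0.0419 at gene starts and 0.0581 away from them.

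At -log10 q of at least 10 and with the 20000 best peaks, the shared minus ATAC-only gaps were 28.5 and 39.6 for H3K9ac, 25.2 and 34.9 for H3K9cr, and 15.8 and 15.7 for gene starts, and the gene-start gap to H3K18la-only regions was 55.9 and 43.5 (45.2 with a 2500 bp window). Genes called by both, ATAC only and H3K18la only were 4128, 819 and 2954, and 4684, 2443 and 914. The telencephalon H3K18la-only count was 41 at the first setting, and the growth count called by both was 35 and 42. At 1 CPM or more stood 97.1%, 70.9%, 83.9% and 14.0% of both, ATAC-only, H3K18la-only and neither genes with a 500 bp window, and 95.7%, 64.5%, 73.0% and 11.1% with 2500 bp. The cause was not tested.

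Leaving out 1 library gave 64.2% to 75.6% of ATAC and 19.3% to 34.6% of lactylated regions shared, 57.4% to 70.0% central, 280 to 329 bp, rho -0.0200 to 0.0391, gaps of 53.8 to 63.8 (H3K9ac), 48.1 to 57.6 (H3K9cr), 29.7 to 46.9 (E16.5), 27.9 to 34.6 and 37.5 to 48.9 (gene starts), 554 to 740 ATAC-only and 1652 to 2207 H3K18la-only genes, and 96.5% to 96.6%, 79.1% to 79.1% and 12.9% to 12.9% of both, H3K18la-only and neither genes at 1 CPM. RNA call counts by class stayed within 1.5 times in the settings run. The fit with a replicate block called 4675 genes higher and 4851 lower, and same-numbered RNA libraries had a correlation of 0.125 in their deviations over 2 pairs, which share only a number. Of 255 named genes, 0 reversed; upper-quartile scaling lost 13 calls and gained 11, DESeq2 lost 14. With stranded starts alone, 23 of 44 telencephalon genes were H3K18la only, a check chosen after seeing the data, as were the settings for the lists and the promoter windows. Motif shares at ATAC summits were not run, since no genome was used. Read depth is unknown, so a missing peak is no absence of signal.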
